A study of Mus musculus with 2 samples.

Results

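The block of mouse chromosome 14 from 42 to 45 Mb (mm9 build) held 546 of the 41561 regions in which H3K4me3 tags of Mll-PTD cells exceeded those of wild-type cells at least 4-fold. Its members were all listed regions that start in this 3 Mb stretch. The stretch was chosen because regions crowd there, so the number itself and the excess of Mll-PTD over WT are descriptions and were not tested. Each member stands with its length, its tags in both libraries and the caller's scores.

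Chromatin immunoprecipitation with the H3K4me3 antibody ab8580 (Abcam), followed by sequencing, was done on LSK cells from the bone marrow of C57BL/6 mice. H3K4me3 is trimethylation of lysine 4 on histone H3. Blood stem cells and early progenitors are found in the LSK fraction, named for low lineage markers and the presence of Sca1 and KIT. The cells were enriched on magnetic beads for CD117 (KIT) and then Sca1, and the number of mice behind a library is not given in the sources used here. The WT library came from wild-type mice. The Mll-PTD library came from heterozygous mice that carry a partial tandem duplication (PTD) knocked into 1 copy of Mll. No treatment, time point or age is given in the labels. There were 58083118 tags in the Mll-PTD library and, judged from the scaling between columns, 43579244 in the WT library. With 1 library per genotype, every value describes these 2 libraries. Every interval is an exact (Clopper-Pearson) 95% interval. For ratios it covers the counting error of tags only. For shares it is taken over regions as if they were independent, though regions of 1 library are not replicates. Overlap of intervals does not show that the values are alike. The enrichment of the cells could not be checked against marker genes in a list of regions.

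H3K4me3 marks the start sites of active genes and of genes poised for activity. Mll, now named Kmt2a, encodes a methyltransferase that places methyl groups on this lysine and keeps Hox genes active in blood stem and progenitor cells. The partial tandem duplication repeats an internal part of the gene in frame and is found in acute myeloid leukaemia. Crowded stretches of this kind can be arrays of segmental duplications, in which long pieces of DNA with their genes were copied within a chromosome. Short reads from near-identical copies are hard to place, so a tag there may come from another copy.

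The deposited list pairs no region with a gene, and no mm9 gene models were used here. As background from another build, the RefSeq annotation of GRCm38 places 118 genes on chromosome 14 between Sftpd, which encodes surfactant protein D, and Ptgdr, which encodes a prostaglandin D2 receptor. Of these, 89 carry only provisional Gm symbols, 51 are protein-coding and 34 are pseudogenes. The run includes 9 Ear genes and pseudogenes, of the eosinophil-associated ribonucleases, and 5 Ang genes and pseudogenes, of the angiogenins. Coordinates were not converted between builds, so whether this run is the block was not tested, and no region below is assigned to a gene. Genome sequence of mm9 was not used here either, so regions are given by position alone.

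The crowding began and ended differently at the block's edges. From 41 to 42 Mb the chromosome held 15 listed regions, and the next 3 Mb held 195, 216 and 135. From 45 to 46 Mb it held 71, of which 65 started before 45.5 Mb, and from 46 to 47 Mb it held 11. The upper edge at 45 Mb therefore lies inside the crowded stretch, while the lower edge lies close to its start. Just outside the lower edge, chr14:41957107-41957607 had 25.5 Mll-PTD tags, in units of the WT library, and 2 WT tags. The first member, chr14:42024278-42024778, had 26.3 and 4. The last member, chr14:44976044-44976544, had 25.5 and 6, and the next region, chr14:45039911-45040744, had 39.8 and 4.

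Members stood close together. The block held 182 regions per Mb, against 17.9 in the rest of chromosome 14, a ratio of 10.2. It took 20.4% of the chromosome's listed regions on 2.46% of the span between its first and last region. Listed regions covered 17.7% of the block and 1.35% of the rest. The median gap between neighbouring members was 2296 bases (quartiles 1074 and 4882), against 15925.5 in the rest of the chromosome, and the widest gap was 59770 bases. Outside the block, the 120 1-Mb bins of chromosome 14 held a median of 12 regions and at most 119.

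Within the block the crowding was uneven. The 30 bins of 100 kb held 7 to 32 members. The 22 bins below 44.2 Mb held 455 members, 8 to 32 each, and the 8 bins above held 91, none more than 14. The densest bin started at 43.9 Mb. The sparsest, with 7 members, started at 44.5 Mb.

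The block's members were longer than the other listed regions of the chromosome. The median length was 636 bases (quartiles 500 and 1097) against 500 (500 and 727). Regions of exactly 500 bases, the size of 1 peak of the caller, made up 43.4% of the block (237) and 58.4% of the rest. Regions of over 2000 bases made up 9.71% (53) and 3.76% (80). The block held 6 regions of at least 5000 bases, and the other 119 Mb of the chromosome held 4.

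In tags, Mll-PTD stood well above WT throughout the block, as the list requires. Summed over all members, 26879.2 scaled Mll-PTD tags stood against 3099 WT tags, a ratio of 8.67 (8.36 to 9). The rest of chromosome 14 had a ratio of 8.20 (8.03 to 8.37) and the whole list 7.70. The median member had 4 WT tags (quartiles 1 and 7) and 33.8 scaled Mll-PTD tags (25.5 and 56.3). Per kb of listed region, the block held 50.5 scaled Mll-PTD tags and 5.82 WT tags, against 51.7 and 6.30 in the rest of the chromosome. An even spread of the WT library over the genome size in the file header gives 21.8 tags per kb, so the members stood at 2.32 times that level in Mll-PTD and 0.267 of it in WT. The caller's 4-fold threshold and its threshold of 30 tags per peak set part of both levels. That threshold shows in the peak score, which was never below 30, while the deposited tags of 34 members came to fewer than 30 unscaled Mll-PTD tags, with a lowest count of 25.

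Members had a median log2 ratio of 2.96, with a pseudocount of 1 on either side (quartiles 2.43 and 3.98), and the rest of chromosome 14 had 2.77 (2.27 and 3.60). By the fold in the authors' deposited table, where 0.5 stands in for 0 WT tags, 323 members (59.2%) reached 8-fold, against 47.0% of the whole list and 51.4% of the rest of the chromosome. The block was chosen from the same comparison, so this count describes its members and no more. With the regions that had no WT tag set against 3 tags, 295 members (54.0%) reached 8-fold, against 43.3% of the whole list.

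**Figure D1:**
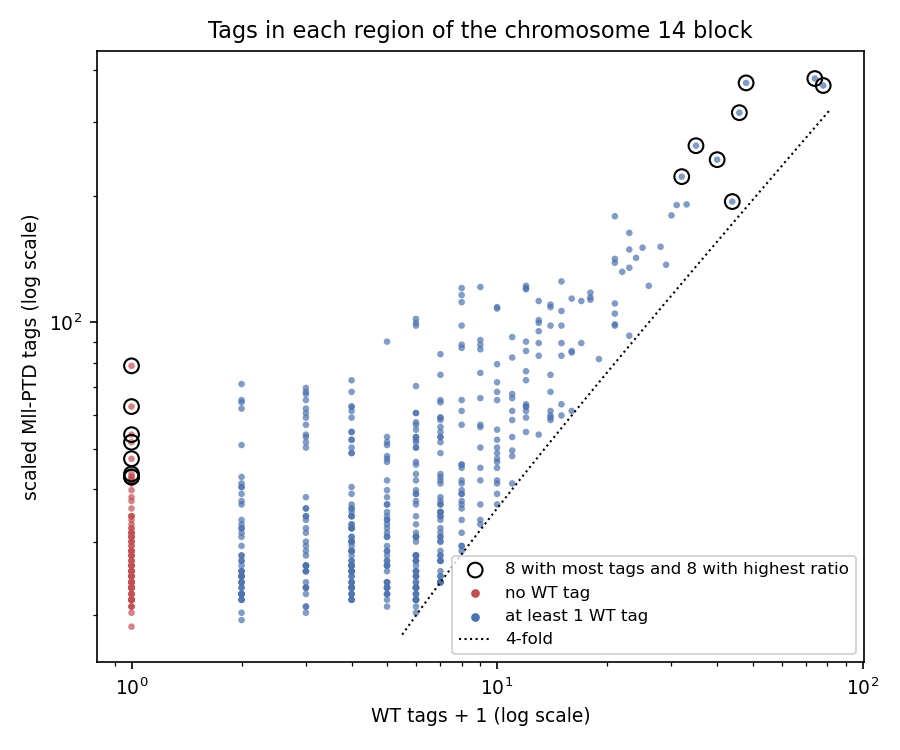
Scaled Mll-PTD tags (vertical, log scale) against WT tags plus 1 (horizontal, log scale) in each of the 546 members, with members without a WT tag in red, the dotted line at 4-fold, and circles around the 8 members with the most tags and the 8 with the highest ratio. The 8 members with the most tags lie above the 4-fold line at 31 to 77 WT tags, and the 8 with the highest ratio all lie in the column with no WT tag.

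The members with the most tags were the long ones. The 8 with the most Mll-PTD tags were 2927 to 7313 bases long and took 8.80% of the block's Mll-PTD tags and 12.6% of its WT tags. Their ratios ran from 4.52 to 7.93, and the ratio of their sums was 6.08, below the 8.67 of the block. First was chr14:42750471-42757784, with 381.9 scaled Mll-PTD tags against 73 in WT, a ratio of 5.23 (4.09 to 6.78). Next was chr14:44006396-44013599, with 372.9 against 47, a ratio of 7.93 (5.88 to 10.9). The third, chr14:42282860-42290089, had 367.6 against 77, a ratio of 4.77 (3.75 to 6.15). These 3 differed by little in Mll-PTD tags, and their intervals of the ratio overlapped.

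These 3 members were also alike in length, at 7313, 7203 and 7229 bases. The next 3 in length formed a like group, at 5479, 5477 and 5461 bases. Of these, chr14:43193911-43199388 had 316.6 scaled Mll-PTD tags and 45 WT tags, a ratio of 7.04 (5.17 to 9.79). A second, chr14:44024763-44030242, had 264.1 and 34, a ratio of 7.77 (5.45 to 11.4), and chr14:42301124-42306585 had 244.6 and 39, a ratio of 6.27 (4.49 to 8.98). All 3 intervals overlapped. The other members among the 8 with the most tags were chr14:42853993-42856920, with 222.8 against 31 and a ratio of 7.19, and chr14:43343827-43347584, with 194.3 against 43 and the lowest ratio of the 8, 4.52 (3.26 to 6.40).

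The block lacked the tallest peaks of the chromosome, though scores of at least 40 were more frequent in it than in the rest. The caller scores each region by its tallest peak, close to the Mll-PTD tags in its fullest 500 bases, and the highest score in the block was 56, against 159 in the rest of chromosome 14. Scores of at least 40 were found in 124 members (22.7%), against 14.5% of the rest. The 3 highest scores stood in short members. They were chr14:42660389-42661169, with 60.8 scaled Mll-PTD tags against 5 in WT, chr14:44059742-44060242, with 42 against 8, and chr14:43399861-43400361, with 42 against 4. The last of these scored 55, as did chr14:44871010-44871837, with 59.3 against 6, which lies further along the chromosome and was named only for the tie. The caller's clonal fold, which rises where tags pile on few positions, had a median of 0.75 in the block and 0.72 in the rest, and exceeded 1 in 1 member. It exceeded 1 in 49 of the 2129 other regions of the chromosome.

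No WT tag was found in 99 members (18.1%, 15.0% to 21.6%), against 13.5% of the whole list and 15.5% (14% to 17.1%) of the rest of chromosome 14. A count of 0 still allows up to 3 WT tags. Most of these members were small: 65 had 500 bases, 4 exceeded 1000 bases, and none of the 53 members of over 2000 bases was among them. Their median was 26.3 scaled Mll-PTD tags, against 36.8 in members with a WT tag, but per kb they held 49.3 against 50.7. They were scattered through the block, in 61 cases with a WT tag in both neighbouring members, in 16 pairs and in 2 runs of 3. The longer run, chr14:42942147-42947434, held 68.3 scaled Mll-PTD tags in 3 regions of 500 bases without a WT tag, at least 22.8-fold higher against 3 tags over the run.

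The 8 members with the highest log2 ratio, among those with at least the block's median of Mll-PTD tags, all had no WT tag. Against a floor of 3 WT tags they were at least 14.3-fold to at least 26.3-fold higher. The first, chr14:44122995-44124847, had 78.8 scaled Mll-PTD tags against 0 and was at least 26.3-fold higher, the largest of these bounds. The second, chr14:44703807-44705057, had 63 and was at least 21-fold higher, and chr14:42140409-42141417 had 54 and was at least 18-fold higher. The remaining 5 held 42.8 to 51.8 tags, and all 8 were 667 to 1852 bases long, far shorter than the members with the most tags. The lower limits of the exact intervals, which allow error in both libraries, were lower than these bounds, from 11.2 to 21. Clonal folds of these 8 ran from 0.64 to 0.82, within the range of the other members.

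Along the block, the Mll-PTD level, in part set by the caller's peak threshold, was nearly even, and the WT level was not. Across the 30 bins of 100 kb, scaled Mll-PTD tags stood between 45.4 and 54.3 per kb of listed region. WT tags ranged more widely in proportion, from 2.71 to 7.79 per kb. The ratio of summed tags ran from 6.66 (5.79 to 7.69) in the bin starting at 42.2 Mb to 17.0 (11.4 to 26.4) in the bin starting at 43.2 Mb. The interval lay above the block's ratio of 8.67 in 5 bins and below it in 3. The bin at 43.2 Mb held 12 members with 424.2 scaled Mll-PTD tags and 25 WT tags, and the bin at 42.2 Mb held 26 with 1458 and 219. The bins starting at 42, 42.9, 43.4 and 44.2 Mb were also above, with ratios of 14.8, 15.1, 12.1 and 13.1, and those at 42.7 and 43.3 Mb below, with 6.70 and 7.04. The bins at 42.2 and 42.7 Mb include the 7229-base and 7313-base regions, but the bin at 44 Mb, with the 7203-base region, had a ratio of 8.82. The part of region length in the spread between bins was not tested.

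**Figure D2:**
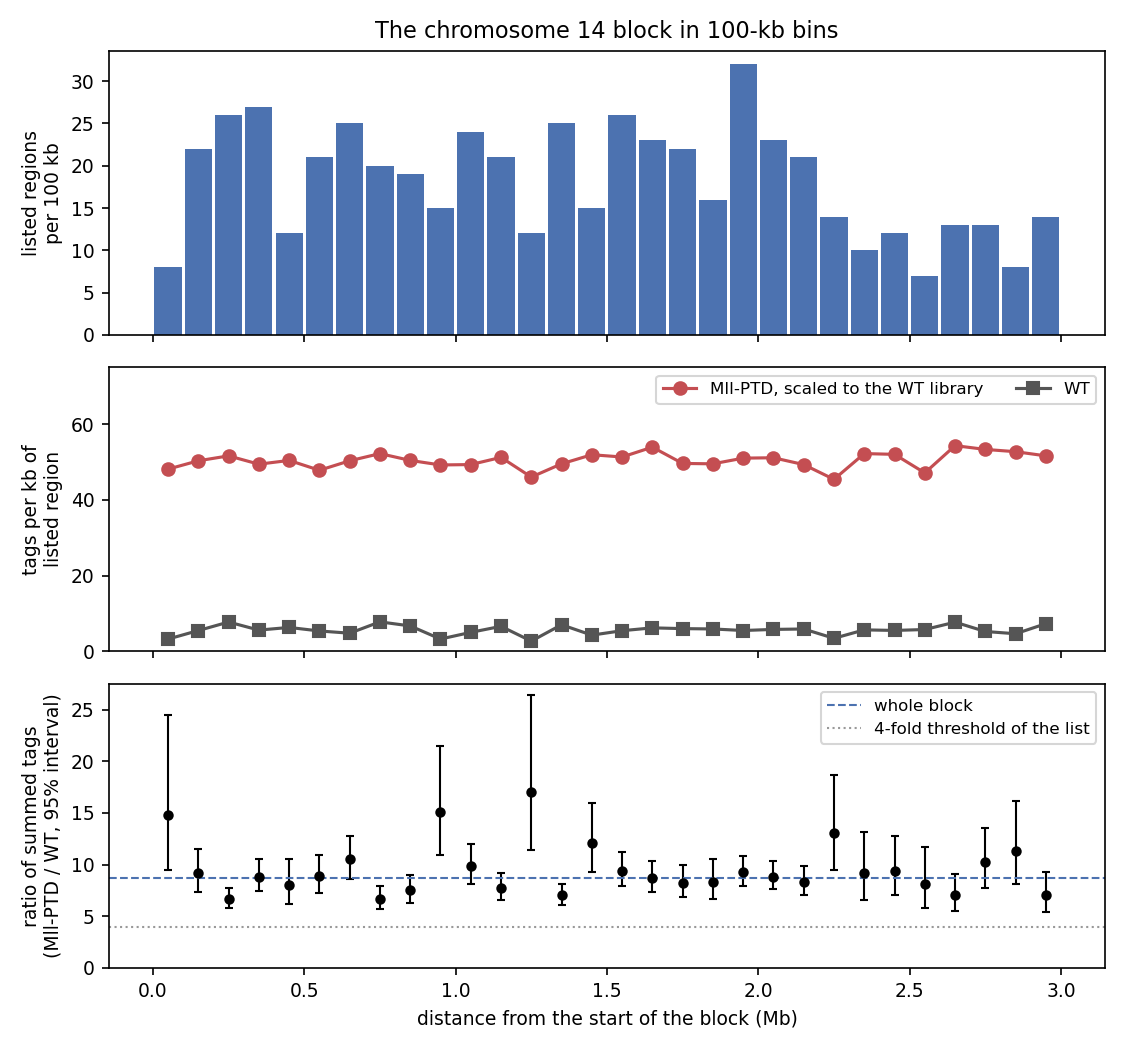
Listed regions per 100 kb (top), scaled Mll-PTD and WT tags per kb of listed region (middle) and the ratio of summed tags with its exact 95% interval (bottom) against distance from the block's start in Mb. Mll-PTD tags stay between 45.4 and 54.3 per kb, while the ratio runs from 6.66 to 17.0 with WT tags between 2.71 and 7.79 per kb.

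The gap in ratio to the rest of the chromosome was largest in regions of 500 bases and smallest in those of over 2000. Between these classes it did not fall steadily with length. In regions of 500 bases the median log2 ratio was 2.95 in the block and 2.64 in the rest, a difference of 0.31. It differed by 0.12 in regions of over 500 to 750 bases, by 0.20 in those of over 750 to 1000 and by 0.16 in those of over 1000 to 2000. In regions of over 2000 bases it was 2.85 against 2.83, a difference of 0.02, with ratios of summed tags of 7.33 (6.88 to 7.81) and 7.30 (6.94 to 7.69). In that class the WT level was 6.70 per kb in the block and 6.92 in the rest. Regions of 500 bases had 5.32 WT tags per kb in the block and 6.25 in the rest, at Mll-PTD levels of 51.5 and 51.2, and 27.4% (21.8% to 33.6%) against 18.1% (16.0% to 20.4%) had no WT tag. Averaged within length classes with the block's counts as weights, the difference was 0.21, close to the unmatched 0.20. The difference was thus as large with length matched as without. Regions of 1 library are not replicates, so no p-value is given.

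The 53 members of over 2000 bases carried 29.3% of the block's Mll-PTD tags and 34.7% of its WT tags. Each of them had a WT tag. Their median ratio was 7.61 (quartiles 6.29 and 11), from 4.52 to 22.5, and 33 of them lay between 5 and 10.

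**Figure D3:**
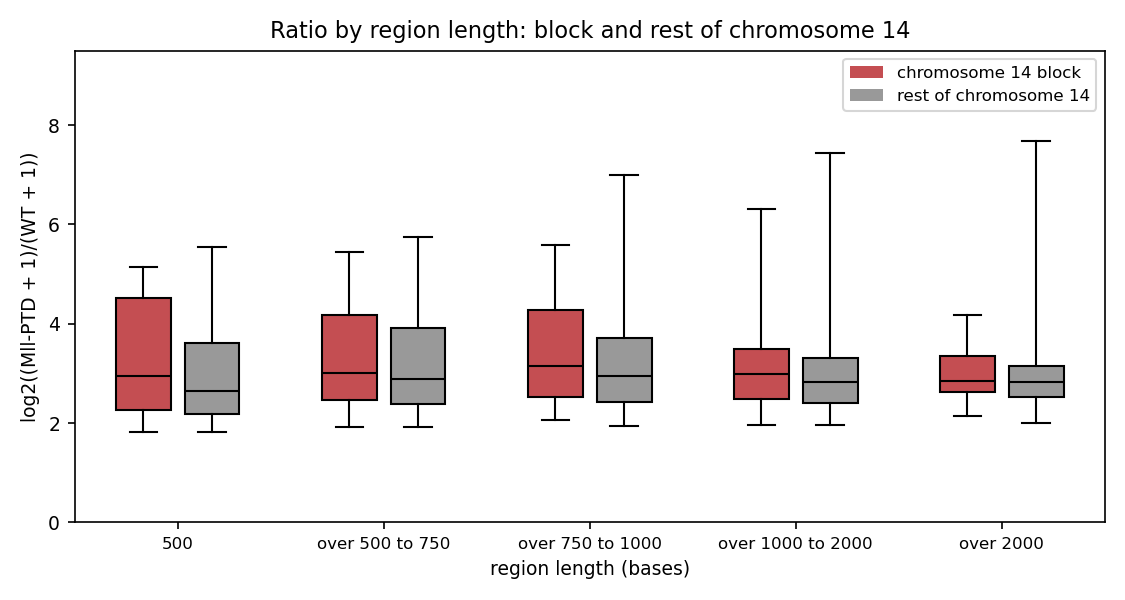
Log2 ratio of Mll-PTD over WT tags with a pseudocount of 1, by region length in bases, for the block (red) and the rest of chromosome 14 (grey); boxes are quartiles, lines in them medians and whiskers the lowest and highest region. The medians differ by 0.31 in regions of 500 bases and by 0.02 in regions of over 2000 bases.

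The like lengths of the longest members recurred at like distances. The 7229-base region at 42282860 and the 5461-base region at 42301124 stood in the same order, and nearly the same distance apart, as the 7203-base region at 44006396 and the 5479-base region at 44024763. Their centres were 17.38 kb apart in the first case and 17.50 kb in the second, and the arrangements lay 1.72 Mb apart. To describe how often such an arrangement recurred, members of at least 2000 bases whose lengths agreed within 5% and whose centres were at least 100 kb apart were taken as anchors. Members within 50 kb of the first anchor were then matched to members within 50 kb of the second, in the same or in reversed order. A match needed offsets that agreed within 300 bases and were each other's nearest. Each pair of anchors was compared in both orders. Over the 400 comparisons that 54 anchors gave, a median of 2 neighbours matched, and 10 comparisons matched at least 8. With offsets within 200 bases 4 comparisons did so, and within 500 bases 47. The 10 are not all separate arrangements, since different anchors of the same stretches gave comparisons at shifts of 1724 kb and of 414 kb. The method was chosen after the positions had been seen, and the alignments described next are the highest of these 400, each sharing no matched member with those before it.

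In the first alignment, 12 of the 25 neighbours of the 7229-base region matched neighbours of the 7203-base region, which had 28. On the right side the match ran through 4 consecutive members up to the 5461-base and 5479-base regions. On the left side the positions matched while several lengths did not, such as 500 against 2145 bases for the outermost pair. The 7229-base region had 367.6 scaled Mll-PTD tags and 77 WT tags, and its partner had 372.9 and 47. Over all 13 matched regions, anchors included, the first stretch held 1099.1 scaled Mll-PTD tags and 189 WT tags, a ratio of 5.82 (5 to 6.80). The second held 1256.8 and 169, a ratio of 7.44 (6.34 to 8.76), and the intervals overlapped only between 6.34 and 6.80. The 7313-base region did not share this arrangement: at most 5 of its 19 neighbours matched those of the other 2 anchors.

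The second alignment, 414 kb apart, was the most compact. From chr14:42989049-42989549 to chr14:43021179-43022293, 12 of 13 members had a partner in the stretch from 43403048 to 43436027. The anchors were chr14:42992357-42994440, of 2083 bases, with 86.3 scaled Mll-PTD tags against 8 in WT, and chr14:43406355-43408502, of 2147 bases, with 98.3 against 13. The next long pair, of 2337 and 2430 bases, had 98.3 against 5 and 108.8 against 9. Of the matched short members between them, chr14:42998301-42999104 had 65.3 against 1 and its partner chr14:43412069-43413097 had 68.3 against 2. Less alike were chr14:43002134-43002634, with 26.3 against 4, and its partner, with 37.5 against 6. Further right, chr14:43013208-43013900 had 36.8 against 6 and its partner 30 against 0. The 13 pairs include 1 outlying match 44 kb to the left, with 32.3 against 1 and 99 against 20. Over all 13, the first stretch had 609.5 scaled Mll-PTD tags and 44 WT tags, a ratio of 13.9 (10.2 to 19.2). The second had 703 and 70, a ratio of 10 (7.87 to 13.0), and the intervals overlapped. WT had no tag in 4 members of the first stretch and 2 of the second, and in 1 pair on both sides.

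In the third alignment the order was reversed. Around chr14:43349932-43352011 and chr14:43912600-43914766, 563 kb away, 9 of 24 neighbours matched when the second stretch was read backwards. Beside the anchors stood members of 1409 and 1420 bases, with 58.5 and 60 scaled Mll-PTD tags and 13 WT tags each. Other pairs matched in position but not in size, such as chr14:43307432-43307932, of 500 bases with 22.5 against 1, and chr14:43955235-43958185, of 2950 bases with 141.8 against 20. Across the 10 pairs of this alignment, the Pearson correlation of log2 Mll-PTD tags was 0.373, against 0.645 and 0.740 across the 13 pairs of each of the first 2. Each set of pairs includes its anchors, which were chosen for like length, and the correlation without them was not computed. These pairs share both libraries, and short regions all sit near the caller's threshold. Mll-PTD tags per kb were also nearly even along the block, so like tags partly restate like lengths. Over the 10 pairs the ratios were 10.6 (7.68 to 15.1) and 8.62 (6.66 to 11.3). The next alignment by the same rule, with 7 matched neighbours, had a correlation of -0.0499 across its 8 pairs. Whether the DNA of any of these stretches is alike was not tested, and how the aligner placed reads that match several sites is not given in the sources used here.

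**Figure D4:**
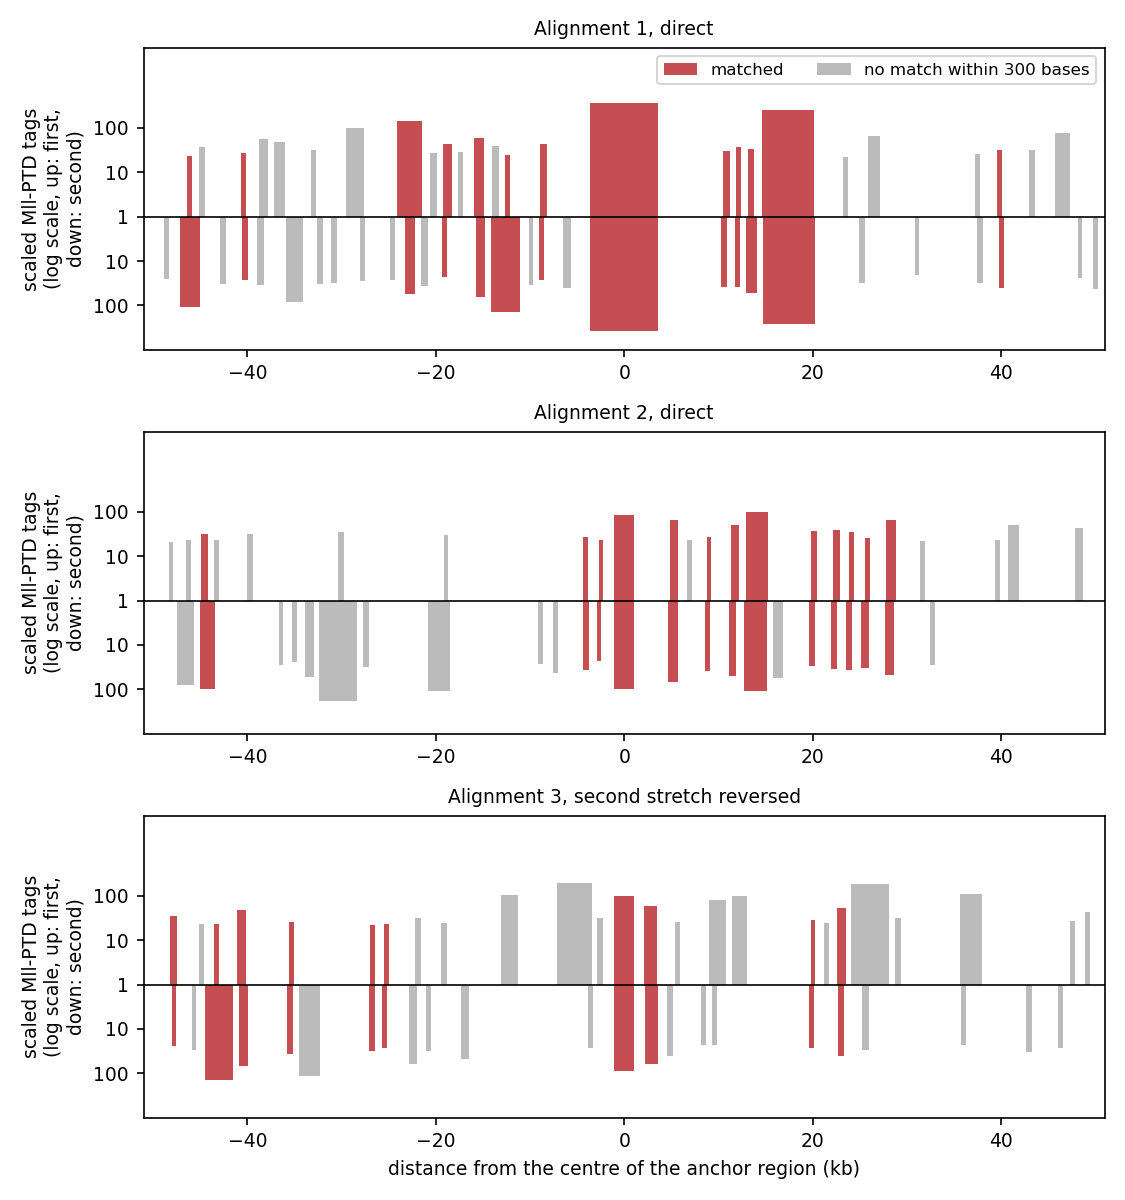
Members around the anchors of the first 3 alignments, by distance from the anchor's centre in kb. Scaled Mll-PTD tags are on a log scale, upward for the first stretch and downward for the second. Bar width is region length, with matched members in red and others in grey. In the middle panel 12 of the 13 matched pairs lie within 30 kb of the anchors.

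The tags showed no single repeat length up to 500 kb, the longest distance examined. The autocorrelation of scaled Mll-PTD tags in 1-kb steps was at most 0.12 from 5 kb on, at 12 kb, and at most 0.0903 beyond 50 kb, at 66 kb. Values this low describe weak structure at most within that limit, and the recurring stretches stood at unequal distances. The alignments 1.72 Mb and 563 kb apart lay beyond the limit. The autocorrelation also compares tags in the same order only. It therefore cannot decide whether a length repeats at longer distances or in reversed order.

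Matched stretches were not particular to this block. In the crowded block of chromosome 7 from 21 to 24 Mb the best comparison matched 18 neighbours, and in that of chromosome 5 from 94 to 96 Mb it matched 15. On chromosome 12 from 23 to 25 Mb, where only 4 comparisons could be made, the best matched 7. The ratio of summed tags in the chromosome 14 block, 8.67 (8.36 to 9), was the lowest of the 4, against 9.14 (8.75 to 9.54), 9.57 (9.06 to 10.1) and 9.77 (9.12 to 10.5), and the interval of chromosome 7 overlapped it. Its share at 8-fold, 59.2%, was the lowest, against 60.1%, 60.4% and 63.3%. Median log2 ratios were 2.96 here and 2.94, 2.99 and 3.06 there. Median lengths were 636 bases here and 629, 638 and 500 there. Its share of regions of over 2000 bases, 9.71%, was the highest, against 6.79%, 6.19% and 2.92%. Its share of scores of at least 40, 22.7%, was also the highest, against 13.4%, 11.1% and 5.42%. Its share without a WT tag, 18.1%, was close to the 18.6% (14.5% to 23.3%) of chromosome 5 and lay between the 9.88% (7.37% to 12.9%) of chromosome 7 and the 22.5% (17.4% to 28.3%) of chromosome 12. None of these differences was tested, since each rests on the same 2 libraries.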

How the data were processed

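H3K4me3 immunoprecipitates of 1 WT and 1 Mll-PTD library were compared; groups follow the genotype in the labels. Bowtie 0.12.7, HOMER 4.7 and mm9 are named, per the submitters' processing notes. Per the file headers, HOMER's peak finder ran in histone style on Mll-PTD tags with WT tags in place of an input, joining 500-base peaks, with a false discovery rate of 0.001, 30 tags or more per peak, 4-fold over WT and a Poisson p-value of at most 0.0001. No region higher in WT can be on the list. An input without immunoprecipitation was not used here.

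Signal was taken from the authors' deposited columns: Mll-PTD tags (per 10000000, and as scaled to the size of the WT library) and WT tags, with 0.5 for 0. Each region's ratio (fold) and p-value were deposited by the authors; the p-values were not used. The peak score and clonal fold are the authors' deposited scores. Scaled tags divided by 0.750 gave whole Mll-PTD tags within 0.1 for 100% of regions, which were used for intervals. Tags are not independent molecules.

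Members and measures were chosen with earlier results of these data known. Named regions are the 8 with most Mll-PTD tags, the 5 longest, the 3 with the highest score and the 8 with the highest log2 ratio (pseudocount 1) among members at or above the median of Mll-PTD tags. Ratios, intervals and the recovery of planted copies by the matching were tested on simulated data. The planted copies differed less in offset than the alignments above and had no unmatched neighbours. How many neighbours match between unrelated crowded stretches was not simulated. Alternatives were other pseudocounts, folds, scores, merging, length classes, edges and references. Software was scipy 1.17.1, pandas 2.3.3, numpy 2.4.6 and matplotlib 3.10.9 under Python 3.11.15.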

Additional observations from a re-analysis of the deposited data

How the results depend on the processing

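The block held 546 regions as deposited, 323 at a fold of at least 8 and 124 at a peak score of at least 40. Merging regions with gaps of at most 1 kb gave 428 and moving both edges outward by 0.5 Mb gave 622. The density ratio of 10.2 to the rest of the chromosome became 8.67 after merging, 11.7 at 8-fold and 16 at a score of at least 40. At a pseudocount of 5 the block's median log2 ratio was 2.30 in place of 2.96, and it was 3.09 with 0.5, 2.77 in regions with a WT tag and 2.85 in regions of over 2000 bases. The 323 members at 8-fold became 79 in the 149 of over 1000 bases (53.0%, against 46.4% in the rest of the chromosome). The share with no WT tag, 18.1%, became 10.7% in members at or above the list's median of Mll-PTD tags and 2.68% in those of at least 1000 bases. The difference in median log2 ratio of 0.20 stayed between 0.20 and 0.30 under all its alternatives, which took length classes only as an average. Within single classes it ran from 0.02 in regions of over 2000 bases to 0.31 in those of 500. With offsets within 200 bases the 3 alignments matched 9, 4 and 5 neighbours, and within 500 bases 14, 14 and 11, where the median comparison matched 4. The tolerances, the classes of over 1000 and over 2000 bases and the reference without 3 to 9 Mb and 45 to 46 Mb were chosen after seeing the data. No paired analysis was possible because there was 1 library of each kind. Single members have a median of 4 WT tags, which limits each ratio.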

Other observations

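Chromosome 14 holds another crowded stretch. From 3 to 9 Mb, 496 regions were listed, with a median log2 ratio of 3.02, against 2.96 in the block from 42 to 45 Mb. The difference in median log2 ratio between the block and the rest of the chromosome was 0.20 with this stretch in the reference and 0.30 without it and without 45 to 46 Mb.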
